A study of Mus musculus with 6 samples.

Results

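The genes described here are the STAT transcription factors (signal transducers and activators of transcription) Stat2, Stat3, Stat4, Stat5a, Stat5b and Stat6 in the mouse hippocampus. These 6 genes were taken by symbol from the 54752 genes of the count tables. The comparison was between bilateral carotid artery stenosis (BCAS), a model of chronic cerebral hypoperfusion, and sham surgery. All 6 animals were male wild-type mice, C57BL/6 in the labels and C57BL/6 J in the study's methods, with an age of 14 weeks in the labels, and both groups had isoflurane anesthesia and neither carried a transgene or knockout. In the 3 BCAS mice both common carotid arteries were wrapped with a microcoil, the narrower one on the right, and the 3 sham mice went through that surgery with no coil placed. RNA was taken from the whole right hippocampus at 3 weeks after surgery, with 1 library per mouse. BCAS is thus represented by the side with the tighter stenosis, and by 1 time point.

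STAT proteins wait in the cytoplasm until a cytokine receptor with bound Janus kinases (JAKs) phosphorylates them on a tyrosine. They then pair through their SH2 domains, enter the nucleus and bind DNA, mostly at gamma-activated sites (GAS). STAT2 differs in that it acts on interferon-stimulated response elements (ISRE) as part of a complex with IRF9, below the type I interferon receptor. STAT3 is the main factor below gp130 cytokines and is known in the brain for its role in reactive astrocytes. STAT4 is used by lymphocytes that respond to IL-12, STAT5A and STAT5B by cells that respond to GM-CSF, IL-2 family cytokines, growth hormone and prolactin, and STAT6 by cells that respond to IL-4 and IL-13. The activity of these proteins depends on phosphorylation, which RNA counts do not measure.

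Library totals were 34301711 to 35607098 counts in the sham group and 29652456 to 31892083 counts in the BCAS group. A count of 3 or fewer was taken as the limit of detection, which corresponds to 0.0874 to 0.0994 CPM (counts per 1e6 counts of the library) and covers counting error only. Hippocampal neuron markers were present in every library, with a summed level of 4063 to 4206 CPM in sham mice and 2004 to 2967 CPM in BCAS mice for Neurod6, Prox1, Wfs1, Fibcd1, Zbtb20 and Camk2a. Across 18617 tested genes, the median log2 fold change was 0.018. A gene was called changed at an adjusted p under 0.05 by edgeR's quasi-likelihood test, and a differentially expressed gene (DEG) also needed an absolute log2 fold change above 1. The labels number the replicates of each group, taken here as 1 library per mouse, and give no batch. The p-values set the difference between the groups against the spread among mice within them. That spread was estimated with information from all tested genes.

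All 5 STAT genes with enough counts to be tested were up-regulated in BCAS mice, by 1.68-fold to 3.42-fold. Stat5a and Stat6 rose the most, Stat3 rose 2.06-fold, and Stat2 and Stat5b rose by less than the DEG threshold. Among all tested genes, 18.0% were changed upward, and 8.47% were DEGs with higher levels in BCAS mice, as were Stat3, Stat5a and Stat6. Stat4 was near the limit of detection and was removed by the filter on low counts. In each of the 6 genes every BCAS library lay above every sham library, an ordering that 25.3% of tested genes showed, while 22.7% had every BCAS library below every sham library. RNA from a whole tissue cannot tell a larger number of cells that express a gene from more RNA per cell.

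**Figure D1:**
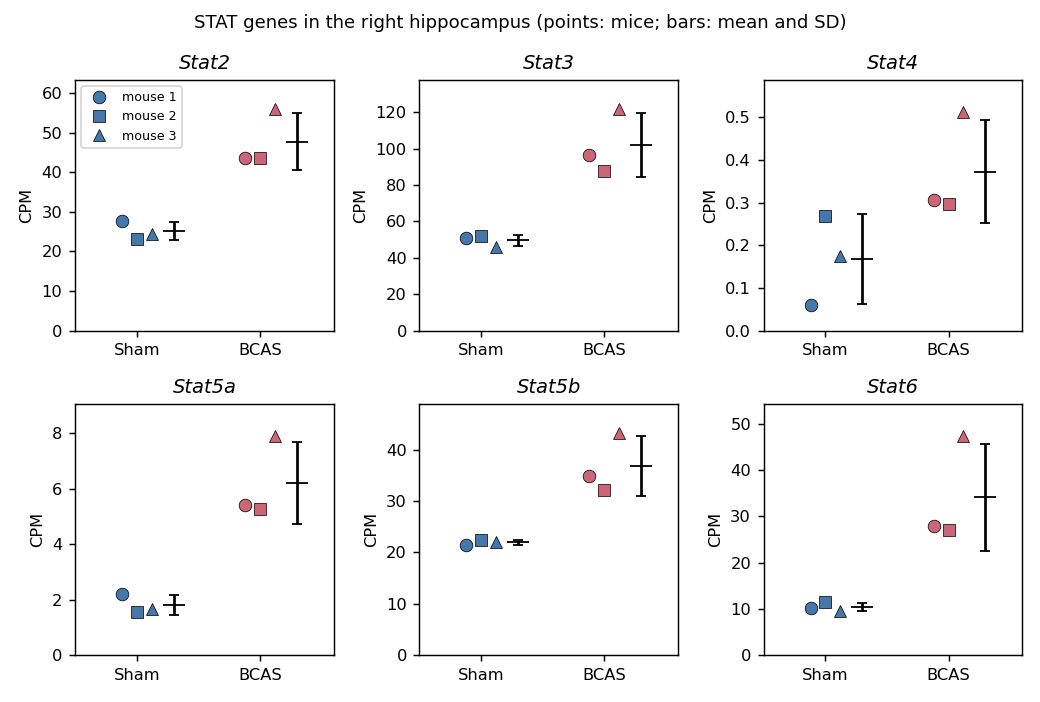
CPM of each STAT gene (y axis, linear, starting at 0) in 3 sham mice (blue) and 3 BCAS mice (red), with 1 marker shape per mouse number and the group mean and SD at the right of the points. The BCAS points lie above the sham points in all 6 panels, and the triangle of BCAS mouse 3 is the highest point in each.

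The 6 genes lie in 3 places of the genome (GRCm38, coordinates of the gene models in the count tables). Stat5b (chr11:100780731-100850724, minus strand), Stat5a (chr11:100859351-100885169, plus strand) and Stat3 (chr11:100885098-100939540, minus strand) are neighbours on chromosome 11. Stat5b and Stat5a lie head to head with 8626 bases between them, and the ends of Stat5a and Stat3 overlap by 72 bases of exon on opposite strands. Stat6 (chr10:127642986-127660957, plus strand) and Stat2 (chr10:128270559-128292849, plus strand) are on chromosome 10 with 609601 bases between them. Stat4 (chr1:51987148-52107189, plus strand) lies on chromosome 1, without another of the 6 genes beside it.

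Promoter windows were searched for STAT motifs because the tested STAT genes moved in the same direction. RefSeq windows of 300 bases (GRCm38.p6) were found for all 6 genes, and both strands were searched. The GAS motif TTCNNNGAA was in 0 of the 6 genes and in 9.55% of 27025 genes with a window. Its form with 4 bases in place of 3 between TTC and GAA was in 1 of the 6, Stat2, and in 8.01% of all genes. The ISRE core, GAAA followed by any 2 bases and GAAA again, was in 2 of the 6, Stat2 and Stat4, and in 3.99% of all genes. That last motif was added after the data had been seen. The bases upstream of the RefSeq start site are printed 5′ to 3′ on the strand of the gene for the 2 genes with an ISRE core, with that match in capitals, and for Stat3 and Stat6, DEGs without a match of any of the 3 motifs.
Stat2 (chr10:128270248-128270497, plus strand): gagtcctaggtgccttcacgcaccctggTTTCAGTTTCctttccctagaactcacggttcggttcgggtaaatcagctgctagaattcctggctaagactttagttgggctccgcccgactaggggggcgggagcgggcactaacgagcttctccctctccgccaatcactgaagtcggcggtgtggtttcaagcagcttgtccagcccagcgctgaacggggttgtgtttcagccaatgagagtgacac
Stat4, second start site (chr1:52007990-52008239, plus strand): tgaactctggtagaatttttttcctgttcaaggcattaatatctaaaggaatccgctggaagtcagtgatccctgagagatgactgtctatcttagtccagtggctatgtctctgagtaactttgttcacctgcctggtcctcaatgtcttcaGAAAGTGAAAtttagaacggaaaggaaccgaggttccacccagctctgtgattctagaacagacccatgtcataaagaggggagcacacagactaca
Stat3 (chr11:100939541-100939790, minus strand): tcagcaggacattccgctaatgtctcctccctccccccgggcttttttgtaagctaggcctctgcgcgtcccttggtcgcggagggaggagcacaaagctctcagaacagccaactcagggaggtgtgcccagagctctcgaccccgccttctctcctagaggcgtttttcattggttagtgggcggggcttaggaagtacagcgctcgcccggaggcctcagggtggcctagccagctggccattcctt
Stat6 (chr10:127642736-127642985, plus strand): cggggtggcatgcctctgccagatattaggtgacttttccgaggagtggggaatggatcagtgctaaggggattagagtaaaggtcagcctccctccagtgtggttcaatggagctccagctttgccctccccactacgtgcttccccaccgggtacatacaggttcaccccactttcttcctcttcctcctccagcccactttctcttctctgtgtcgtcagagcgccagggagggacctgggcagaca

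In Stat2 the ISRE core match, TTTCAGTTTC on the gene's strand, ran from -222 to -213 relative to the start site. The longer-spacer match TTCCCTAGAA followed it at -210 to -201 without overlap. In Stat4 the match GAAAGTGAAA lay at -97 to -88 from the second of 2 RefSeq start sites, 21092 bases inside the gene model of the count tables. A match of these letters is a description of the window and not a bound site, and a window without them says nothing of a factor elsewhere at the gene.

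Stat3 (ENSMUSG00000004040.16), the factor below gp130 receptors, had the highest counts of the 6 genes. Its level was 50.8, 51.9 and 45.9 CPM in sham mice 1 to 3 and 96.6, 87.7 and 121.6 CPM in BCAS mice 1 to 3. The lowest BCAS library was well above the highest sham library, and the BCAS mice differed more among themselves than the sham mice did. The mean went from 49.5 ± 3.20 to 102 ± 17.6 CPM (SD, n = 3 per group), a log2 fold change of 1.04 with a standard error of 0.12 (95% interval 0.77 to 1.31, edgeR adjusted p = 0.000350). The interval reaches below the DEG threshold, and Stat3 was below it without sham mouse 3 (0.99) and without BCAS mouse 3 (0.89), while its adjusted p stayed under 0.05.

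Stat6 (ENSMUSG00000002147.18), the factor below the IL-4 receptor, had 345, 382 and 328 counts in sham mice 1 to 3 against 909, 816 and 1483 counts in BCAS mice 1 to 3. In CPM these were 10.2, 11.4 and 9.56 against 28.0, 27.0 and 47.5. BCAS mice 1 and 2 were close to each other, and BCAS mouse 3 stood well above both. The log2 fold change was 1.72 with a standard error of 0.22 (95% interval 1.23 to 2.21, edgeR adjusted p = 0.000562), a 3.29-fold rise. Without BCAS mouse 3 it was 1.40, the lowest value among the alternatives.

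Stat5a (ENSMUSG00000004043.14) showed the largest fold change of the 5 tested STAT genes, from a low level. Its counts were 75, 52 and 57 in sham mice 1 to 3 and 176, 159 and 247 in BCAS mice 1 to 3. In CPM the gene went from 2.21, 1.56 and 1.66 to 5.41, 5.27 and 7.91, again with BCAS mouse 3 the highest. The 3.42-fold rise (log2 fold change 1.77, standard error 0.24, 95% interval 1.23 to 2.32, edgeR adjusted p = 0.000897) was a DEG in the main fit and in all 14 alternatives.

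Stat5b (ENSMUSG00000020919.11), the neighbour and close relative of Stat5a, had the smallest relative spread among sham mice of the 6 genes. Its level was 21.4, 22.4 and 22.1 CPM in sham mice and 34.9, 32.1 and 43.3 CPM in BCAS mice 1 to 3. The groups were separate, and the sham mice were nearly equal. The log2 fold change of 0.74 (standard error 0.12, 95% interval 0.47 to 1.02, edgeR adjusted p = 0.00218) was the smallest of the 5 tested genes and stayed below the DEG threshold.

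Stat2 (ENSMUSG00000040033.16), the partner of IRF9, was at 27.6, 23.1 and 24.5 CPM in sham mice and at 43.7, 43.7 and 56.0 CPM in BCAS mice 1 to 3. BCAS mice 1 and 2 had the same level and BCAS mouse 3 was higher. The mean went from 25.1 ± 2.31 to 47.8 ± 7.11 CPM (SD, n = 3 per group), a log2 fold change of 0.93 with a standard error of 0.12 (95% interval 0.65 to 1.21, edgeR adjusted p = 0.000718). Its interval includes the DEG threshold, and the value was 1.01 when libraries were scaled by their totals alone and 1.00 without sham mouse 1.

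Stat4 (ENSMUSG00000062939.11), the IL-12 factor of lymphocytes, had 2, 9 and 6 counts in sham mice 1 to 3 against 10, 9 and 16 counts in BCAS mice 1 to 3. Sham mouse 1 was at the limit of detection, and sham mouse 2 and BCAS mouse 2 had equal counts, so that the separation of the groups in CPM, 0.269 against 0.298 at the nearest libraries, rests on library size. It was tested only in the 8 alternatives that kept it, and it passed in 0 of them, with edgeR or DESeq2 adjusted p from 0.146 to 0.466 and an unadjusted p of 0.0541 at the lowest, without sham mouse 2. With no filter beyond 1 count, its log2 fold change was 1.13 ± 0.73 (standard error), at an edgeR adjusted p of 0.361. A difference was not detectable at this depth.

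**Figure D2:**
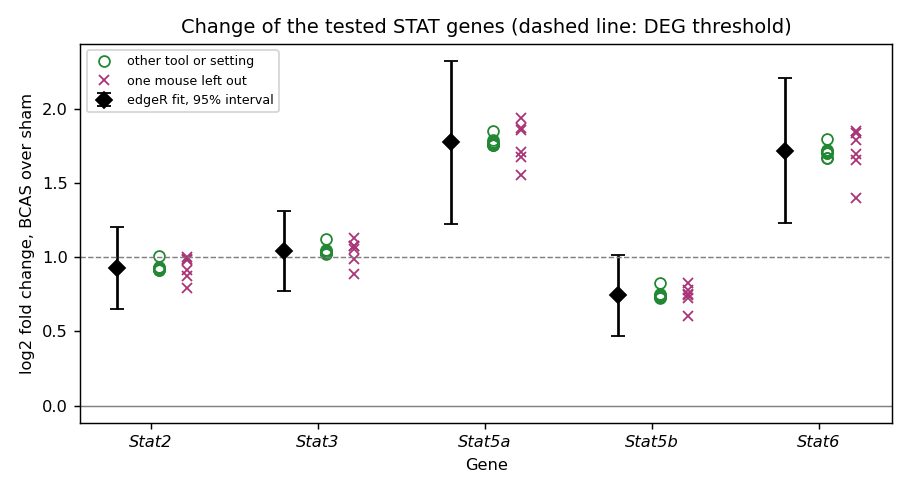
Log2 fold change of BCAS over sham (y axis) for the 5 tested STAT genes: black diamonds with 95% intervals are the edgeR fit, green circles other tools or settings, and crosses fits with 1 mouse left out. Stat5a and Stat6 stay above the dashed DEG threshold of 1 at every point, Stat5b stays below it, and Stat2 and Stat3 have points on both sides.

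Levels of different genes were compared per length, as TPM, a length-scaled level that sums to the same total in each library, from the counts and the exon length in the tables. That length joins all exons of a gene, with 9527, 5926, 5539 and 4402 bases for Stat3, Stat2, Stat5b and Stat6. Their longest protein-coding transcripts have 6042, 4397, 5213 and 3775 bases. The order and overlap of the genes with transcript lengths were not tested. In sham mice the order was Stat3 at 17.6 ± 1.5 TPM, Stat2 at 14.3 ± 1.65, Stat5b at 13.4 ± 0.246, Stat6 at 7.99 ± 0.802, Stat5a at 0.861 ± 0.190 and Stat4 at 0.145 ± 0.0908 (SD, n = 3). Stat3 and Stat2, and Stat2 and Stat5b, overlapped between libraries, and the lower neighbours in this order did not. In BCAS mice the order was Stat3 at 37.5 ± 7.25 TPM, Stat2 at 28.3 ± 4.75, Stat6 at 27.3 ± 9.77, Stat5b at 23.3 ± 4.19, Stat5a at 3.05 ± 0.792 and Stat4 at 0.338 ± 0.117. The upper 4 genes overlapped with their neighbours there between libraries. Within libraries, Stat6 was below Stat5b in every sham mouse and above it in every BCAS mouse. The log2 ratio of Stat5b to Stat6 was -0.0099, -0.084 and -0.46 in BCAS mice 1 to 3, so the margin was small in mice 1 and 2. Stat3 was above Stat2 within every library. Stat5a remained below the upper 4 genes in every library, despite its fold change.

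**Figure D3:**
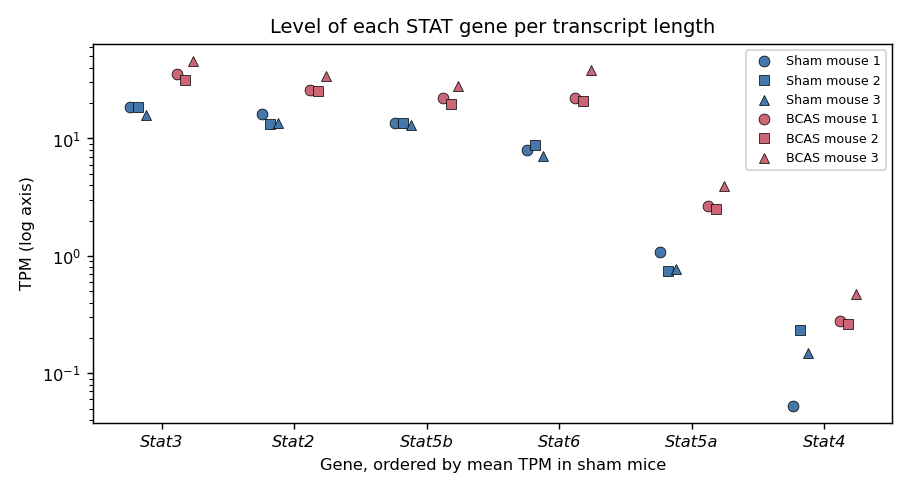
TPM of each STAT gene (y axis, log scale) in every library, with genes ordered by their mean in sham mice (blue, left) beside BCAS mice (red, right). Stat3, Stat2, Stat5b and Stat6 lie together at the top, Stat5a lies below 4 TPM and Stat4 below 0.5 TPM in every library.

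The summed level of the 6 genes was 57.4, 54.9 and 50.8 TPM in sham mice and 109, 100.1 and 150.1 TPM in BCAS mice 1 to 3. Within this sum, the share of Stat6 went from 14.7 ± 1.1% to 22.4 ± 2.86%, and that of Stat5a from 1.58 ± 0.275% to 2.53 ± 0.0956% (SD, n = 3). The shares of Stat5b and Stat6 moved in opposite directions, with Stat5b going from 24.7 ± 1.23% to 19.6 ± 0.888%. Stat3 held 32.4 ± 1.09% in sham mice and 31.5 ± 1.18% in BCAS mice, and these ranges overlapped.

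The ratio of Stat5a to Stat5b was of interest because the proteins are closely related and the genes adjacent. The log2 ratio of their TPM was -3.64, -4.21 and -4.10 in sham mice and -3.06, -2.97 and -2.82 in BCAS mice 1 to 3. Stat5b was the more abundant transcript in every library, and by a smaller margin in each BCAS mouse. The ratio differed by 1.04 between the group means (exact two-sided permutation test, p = 0.1, the smallest value that 3 against 3 mice allow). Of the 10 pairs of tested STAT genes, 7 were at p = 0.1 in this exact test, with a Benjamini-Hochberg adjusted p of 0.143. Besides Stat5a with Stat5b these were the pairs of Stat5b with Stat6 (log2 ratio 0.75 to -0.19), Stat2 with Stat5a, Stat2 with Stat6, Stat3 with Stat5a, Stat3 with Stat6 and Stat3 with Stat5b. The log2 ratio of Stat2 to Stat3 differed by -0.11 (exact permutation p = 0.4) and that of Stat5a to Stat6 by 0.096 (exact permutation p = 0.8), both with overlapping groups.

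The closeness of Stat5a and Stat5b also bears on their counts. Of the 100-base windows in their main transcripts, 6.99% of those of Stat5a and 5.18% of those of Stat5b occur unchanged in the other gene, and reads that align to both are left out of the counts. Strand was not used in counting, so reads in the 72 bases shared by the ends of Stat5a and Stat3 cannot be told apart. This stretch is 1.01% of the exon length of Stat5a and 0.756% of that of Stat3. Stat6 shares 40 bases of exon with Nab2 on the other strand. In Stat4, 24.1% of windows occur in another gene, and 26.7% of its exon length overlaps the gene model Gm28177 on the same strand, so its counts are uncertain beyond their small number.

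The other genes of the pathway were taken from 14 lists, some of which share genes. Apart from the 6 STAT genes, 107 of 134 listed genes were tested, and 68 of them (63.6%) rose and 3 fell, beside 18.0% and 13.2% of all tested genes. Of these genes, 55 were DEGs with higher levels in BCAS mice, beside 8.47% of all tested genes, and the median log2 fold change was 1.09. Without sham mouse 1 the number that fell was 1. The filter asked for about 0.302 CPM in 3 libraries, and 20 of the 107 genes would not have met it from the sham libraries alone. Among the other 87 genes 55 rose. All 5 tested STAT genes met the filter in the sham libraries. The lists were written with earlier results of these data known, so these counts describe the lists and are not an independent test. The shares of 18.0% and 13.2% of all tested genes also stand beside the counts given below for each list.

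**Figure D4:**
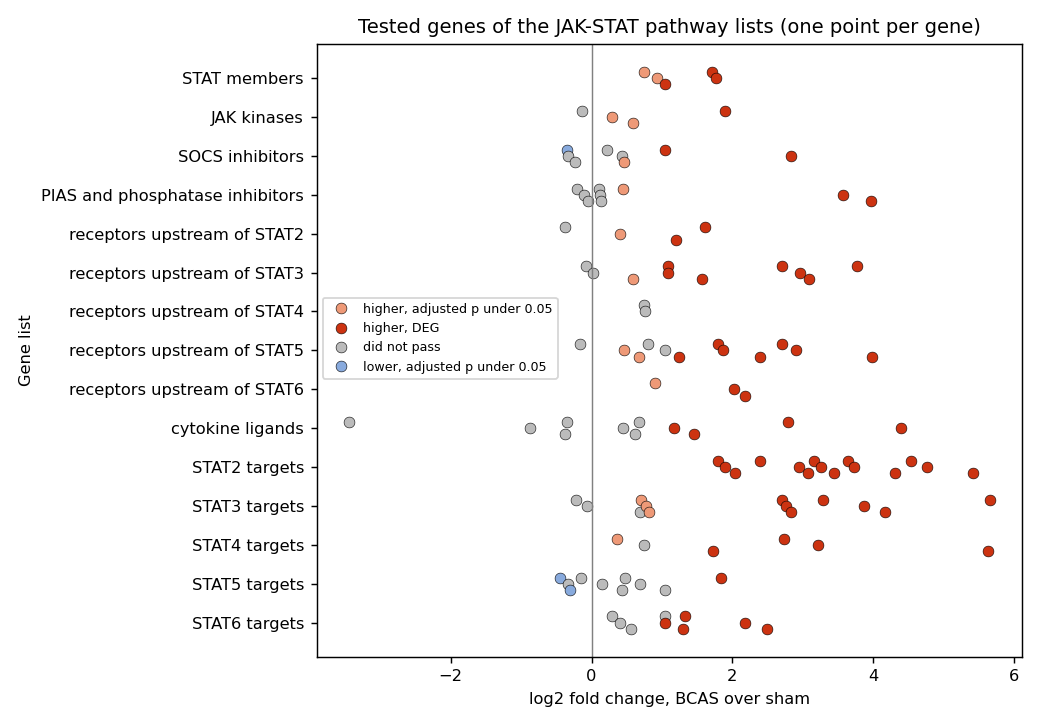
Log2 fold change of BCAS over sham (x axis) for each tested gene of the STAT and JAK-STAT lists (y axis), 1 point per gene, coloured by the edgeR call. All 15 STAT2 targets lie at 1.80 or above, while most STAT5 targets are grey or blue near 0.

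Of 29 cytokine ligand genes 11 were tested, and 4 of these rose, beside 18.0% of all tested genes. Of the 7 that met the filter in sham mice 3 rose. Osm, encoding oncostatin M of the gp130 family, had 0, 4 and 4 counts in the sham group against 44, 54 and 64 in BCAS mice. Its sham mean of 0.0787 CPM was under the limit of detection, and it entered the test through its BCAS libraries, so no fold change is given. Clcf1, another gp130 ligand gene, went from 1.09 ± 0.0824 to 7.54 ± 1.49 CPM, and Lif and Il15 rose by 1.16 and 1.45 on the log2 scale. These 4 genes had low counts in sham mice. The remaining 18 listed ligands were not tested because of low counts. Il6 had 0, 0 and 1 counts in sham mice and 10, 5 and 4 in BCAS mice. For the interferon genes, Ifnb1 had 2 counts in BCAS mouse 3 and Ifng had 2 counts each in BCAS mice 1 and 2, all at or under the limit of detection. Il2, Il3, Il10 and Il13 had 0 counts in all 6 libraries. Il4 was at 14.8 ± 2.08 CPM in sham mice and 11.7 ± 3.14 CPM in BCAS mice (edgeR adjusted p = 0.236), which did not pass the test. Overlap of Il4 with other gene models was not examined, so the source of these counts was not tested.

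Of the receptor genes above STAT3, 8 of 10 tested genes rose. Osmr, the oncostatin M receptor, went from 6.53 ± 1.13 to 42.7 ± 7.90 CPM (log2 fold change 2.71, edgeR adjusted p = 2.21e-05), and Il6st, which encodes gp130 itself, from 84.5 ± 5.23 to 180 ± 36.4 CPM (log2 fold change 1.09). Csf3r, the G-CSF receptor, and Il10ra, the ligand-binding chain of the IL-10 receptor, rose by 3.77 and 2.96 on the log2 scale. Lifr (-0.079) and Cntfr (0.021) did not pass. Lepr, the leptin receptor, passed at an edgeR adjusted p of 0.0407 with overlapping groups, at 215, 255 and 161 counts in the sham group against 596, 196 and 460 in BCAS mice 1 to 3. The summed choroid plexus markers had the same order within each group, at 985, 4075 and 69.8 CPM in sham mice and 5913, 40.3 and 3205 CPM in BCAS mice, and their part in the result for Lepr was not tested.

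Above STAT5, 9 of 12 tested receptor genes rose, and 6 of the 8 that met the filter in sham mice. The beta chain genes Csf2rb and Csf2rb2 stood out in size. Csf2rb had 44, 45 and 44 counts in sham mice against 516, 555 and 871 in BCAS mice (log2 fold change 3.98, edgeR adjusted p = 1.80e-05). Csf2rb2 had a log2 fold change of 2.90. Il2rg, the common gamma chain, went from 0.511 ± 0.285 to 3.37 ± 0.862 CPM, and would not have met the filter from the sham libraries alone. Ghr, the growth hormone receptor, rose by 0.46 on the log2 scale, and Epor, the erythropoietin receptor, was at -0.16 and did not pass.

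All 3 receptor genes above STAT6 rose, with Il4ra, the IL-4 receptor alpha chain, going from 5.54 ± 1.20 to 25.1 ± 7.07 CPM (log2 fold change 2.18, edgeR adjusted p = 0.000197) and Il13ra1 from 7.46 ± 0.276 to 30.3 ± 5.23 CPM (log2 fold change 2.02). Above STAT2, 3 of 4 tested receptor genes rose. The chains of the type I interferon receptor differed in size, with Ifnar1 at a log2 fold change of 0.41 and Ifnar2 at 1.21. Il10rb, a chain of the receptors for IL-10 and interferon lambda, rose by 1.62. Of the IL-12 receptor chains above STAT4, Il12rb1 (0.76) and Il12rb2 (0.74) did not pass, at means under 1 CPM in both groups.

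Of the 4 JAK kinases, Jak3, which pairs with the common gamma chain, went from 241, 206 and 259 counts in sham mice to 635, 719 and 1076 in BCAS mice (log2 fold change 1.9, edgeR adjusted p = 0.000246). Tyk2 rose by 0.59 and Jak2 by 0.29 on the log2 scale. Jak1 was the most highly counted kinase at 204 ± 5.58 CPM in sham mice and 185 ± 7.77 CPM in BCAS mice, and it did not pass (edgeR adjusted p = 0.182).

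Of 8 SOCS genes, inhibitors that bind receptors and JAKs, 3 rose and 1 fell, beside 18.0% and 13.2% of all tested genes. The number that rose was 1 without sham mouse 1 and without sham mouse 2, and the number that fell was 2 without BCAS mouse 2. Socs3, the inhibitor of gp130 signalling that STAT3 itself induces, had 66, 64 and 58 counts in the sham group against 264, 387 and 582 in BCAS mice (log2 fold change 2.83, edgeR adjusted p = 0.000194). Socs1, an inhibitor of interferon signalling, rose by 1.04 and Socs6 by 0.46 on the log2 scale, while Socs5 fell by 0.35. Cish and Socs2, inhibitors induced by STAT5, did not pass, at 0.44 and -0.33. Of 9 PIAS and phosphatase genes 3 rose, and the large changes were in Ptpn6 (log2 fold change 3.57) and Ptprc (3.96), phosphatases that blood-derived cells and microglia express. The 4 PIAS genes (Pias1 to Pias4) did not pass, with log2 fold changes from -0.20 to 0.11, and Pias2, the lowest, was just outside the threshold (edgeR adjusted p = 0.0514). In the list of 9 genes 1 fell with DESeq2, with RLE normalization and without BCAS mouse 1.

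Among known target genes, all 15 of STAT2 rose. Mx1, Oas1a and Oasl1 would not have met the filter from the sham libraries alone, and the other 12 rose by 1.80 to 4.31 on the log2 scale. Irf9, the partner of STAT2, went from 9.68 ± 0.274 to 36.1 ± 8.04 CPM, and Irf7, a regulator of interferon genes, from 2.49 ± 0.342 to 49.4 ± 28.6 CPM with 2573 of its counts in BCAS mouse 3. Mx1, an antiviral gene, had 2, 8 and 15 counts in the sham group against 170, 322 and 506 in BCAS mice. Of 13 tested STAT3 targets 10 rose, and 8 of the 11 that met the filter in sham mice, with Gfap, the astrocyte filament protein, at 3.29, Serpina3n at 2.76 and Bcl3 at 3.88, and with Junb (-0.22) and Cebpb (-0.064) among those that did not pass. Lcn2 and Timp1 are the 2 that did not meet it, with 6, 4 and 27 counts of Lcn2 in the sham group against 166, 785 and 774 in BCAS mice.

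STAT4 targets had low counts, and 6 of 8 were tested. Of these 5 rose, and 3 when the counts were halved because mates had been counted separately. Il18r1, Il18rap and Tbx21 entered the test only through their BCAS libraries, and Ifng and Gzmb did not enter it, so the filter fixes a part of this number. Tbx21, the regulator of type 1 helper T cells, had 6, 8 and 2 counts in the sham group against 24, 14 and 12 in BCAS mice. No p-value is given for it, since it entered the test in this way. Il18r1 had 0, 0 and 2 counts in sham mice, too few for a fold change, and 12, 42 and 54 in BCAS mice. Furin rose by 0.37 from a level of 39.9 ± 0.211 CPM. The STAT6 list had 5 genes that rose among 9 tested, a number that was 3 when sham mouse 1 or sham mouse 2 was left out and 2 when BCAS mouse 3 was, with Mrc1, the macrophage mannose receptor, at a log2 fold change of 1.30. Of the 5 STAT6 targets that met the filter in sham mice 4 rose, and Ccl22 was not among these 5, with 2, 6 and 12 counts in the sham group against 29, 24 and 52 in BCAS mice. Il4ra and Socs1 are counted in that list as well as above.

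In the STAT5 target list 1 of 10 tested genes rose and 2 fell, beside 18.0% and 13.2% of all tested genes, so these numbers do not set the list apart. The gene that rose was Igf1, insulin-like growth factor, from 9.22 ± 0.778 to 33.2 ± 9.49 CPM (log2 fold change 1.85, edgeR adjusted p = 0.000289). Pim2, a survival kinase, fell by 0.45 and Bcl6, a transcriptional repressor, fell by 0.31 on the log2 scale. The other 7 genes did not pass, and the list's median log2 fold change was 0.29. Without BCAS mouse 1 or BCAS mouse 2 the number that rose was 2, and the number that fell was 0 without sham mouse 1 and 1 without sham mouse 2 or BCAS mouse 2.

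Markers of microglia and macrophages and of astrocytes rose as the STAT genes did, while most neuron markers fell. Among all tested genes 18.0% rose and 13.2% fell. The summed level of 8 microglia and macrophage markers was 293, 282 and 285 CPM in sham mice and 1490, 1572 and 2410 CPM in BCAS mice 1 to 3, and all 8 genes rose. The highest of these libraries, BCAS mouse 3, was also the highest library of each of the 6 STAT genes, and 27.1% of tested genes had their maximum there. All 8 astrocyte markers rose, 3 of them as DEGs, with a median log2 fold change of 0.84. Their sum was 3689 to 4037 CPM in sham mice and 8604 to 9238 CPM in BCAS mice, where BCAS mouse 1 was the highest. Most of the rise in this sum was that of Gfap, from 375 ± 45.0 to 3674 ± 238 CPM. Gfap is also counted among the STAT3 targets above. The summed neuron markers fell to 0.671 of their sham level, 6 of 8 genes fell, and the lowest library was BCAS mouse 3.

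**Figure D5:**
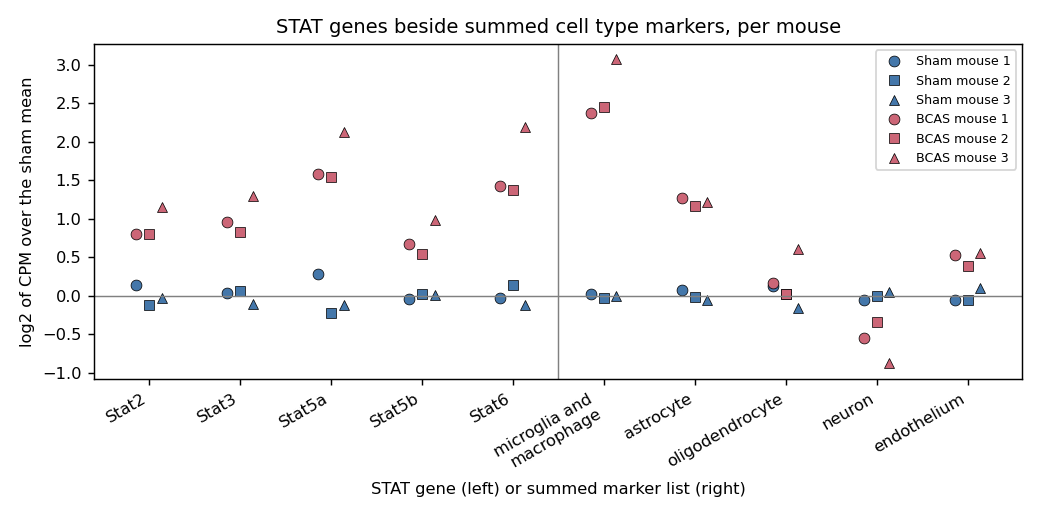
Log2 of CPM over the sham mean (y axis) in every library for the 5 tested STAT genes (left) and for summed marker lists of 5 cell types (right), in sham mice (blue) and BCAS mice (red). Microglia and macrophage markers lie above all STAT genes in the BCAS mice, and BCAS mouse 3 (triangle) is highest in both and lowest for neurons.

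Oligodendrocyte markers summed to 5303 to 6476 CPM in sham mice and 6044 to 9047 CPM in BCAS mice, the highest again in BCAS mouse 3, and the largest log2 fold change among them was that of Mbp at 0.42, which did not pass (edgeR adjusted p = 0.101). Endothelial markers were 1.41-fold and mural cell markers 1.30-fold higher in sum. In these lists 3 of 6 and 4 of 6 genes rose, beside 18.0% of all tested genes. T and NK cell markers, the cells in which STAT4 is best known, summed to 0.501 to 1.05 CPM in sham mice and 7.55 to 8.52 CPM in BCAS mice. Of the 9 markers 7 were tested, and none of the 7 met the filter in sham mice, so the number that rose is not read as a result. Their defining genes were near 0 in sham mice, with Cd3d at 1, 0 and 0 counts against 20, 24 and 30 in BCAS mice, and Cd8a at 0, 6 and 4 against 71, 60 and 74. B cell markers summed to 0.874 to 1.44 CPM in sham mice and 1.99 to 3.23 CPM in BCAS mice. The 5 neutrophil markers summed to 0.598 to 1.51 CPM in sham mice and 0.922 to 3.25 CPM in BCAS mice, with overlapping groups, and 1 of them, Ly6g, had 0 counts in all libraries. The part of these cell types in the levels of the STAT genes was not tested.

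For each STAT gene, the genes with the most similar pattern over the 6 libraries were found by the root mean square difference of centred log2 CPM, among 15473 genes with a mean of at least 1 CPM. Since most of the pattern is the difference between the groups, this picks genes with a similar fold change. Nearest to Stat2 was Ppcdc (0.0256), among the nearest to Stat3 was Rab31 (0.0426), and nearest to Stat5b was Wdr81 (0.0195). Stat5a had Tes (0.0782) and Nfatc1 (0.0783), and Stat6 had Parvg (0.0841) and Edem1 (0.0908). The nearest gene to Stat4 was BC028528 at 0.177, a larger distance than for the other STAT genes. Among the 5 tested genes themselves, Stat2 and Stat3 were the closest pair (0.114), followed by Stat2 and Stat5b (0.138), and Stat5a and Stat5b were the farthest apart (0.533).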

How the data were processed

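RNA-seq libraries of the right hippocampus from 3 sham and 3 BCAS mice were grouped and numbered by their labels. Inside the BCAS tables the count columns are numbered 2 to 4, so BCAS mice 1 to 3 do not carry the numbers of those columns. Reads were trimmed by the authors and aligned with HISAT2 (build mm10), and the authors deposited the raw counts per gene from featureCounts, without normalization. According to the file headers, featureCounts 2.0.3 was run with GENCODE vM20, mates were counted as separate reads and strand was ignored. The submitters' processing notes name version 1.6.3. Of 54752 identifiers, 54723 were matched to a symbol.

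Counts were filtered with filterByExpr, normalized by TMM (factors 0.964 to 1.05) and compared with edgeR 4.0.16 (quasi-likelihood, no replicate block) in R 4.3.3, and p-values were adjusted by Benjamini and Hochberg over 18617 genes. Log2 CPM for likeness used a prior count of 2. All 6 members and any gene of the lists could be named. The members and lists were chosen with earlier results of these data known. Promoters were RefSeq windows. The steps were tested on simulated data. Alternatives were DESeq2 1.42.0, limma-voom (limma 3.58.1), RLE, library totals, 2 filters, halved counts, a replicate block and leaving out each mouse. The other STAT-family symbol in the tables was not analysed here. Some genes of the lists and of the likeness search are not reported here.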

Additional observations from a re-analysis of the deposited data

How the results depend on the processing

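Stat2, Stat3, Stat5a, Stat5b and Stat6 stayed higher in BCAS mice, with an adjusted p under 0.05, in all 14 alternatives. Their log2 fold changes ranged from 0.80 to 1.01 for Stat2, 0.89 to 1.13 for Stat3, 1.55 to 1.94 for Stat5a, 0.60 to 0.83 for Stat5b and 1.40 to 1.85 for Stat6, with adjusted p from 1.24e-14 to 0.0169 over these genes (edgeR, DESeq2 or limma-voom). The number of STAT genes that were DEGs was 2 to 4. It was 4 with library totals and without sham mouse 1, when Stat2 reached the threshold, and 2 when sham mouse 3 or BCAS mouse 3 was left out, since Stat3 then fell below it.

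Of the other pathway genes, 58 to 70 rose over the alternatives. The number that fell was 3 in the main fit, 5 with DESeq2, 5 with no filter beyond 1 count, and 1 to 4 when a mouse was left out. Over all genes, DEGs with lower levels in BCAS mice numbered 186, and 96 to 238 when a mouse was left out, the fit without sham mouse 3 giving 117 and that lacking BCAS mouse 3 giving 96. The cause was not tested. Without the filter the spread was estimated with more genes of low count, and Stat4 entered the test. The number of STAT genes with a motif was 0 for the GAS motif, 1 for the GAS motif with a spacer of 4 bases and 2 for the ISRE core. The difference of the Stat5a to Stat5b log2 ratio ranged from 0.92 to 1.21 when a mouse was left out.

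Mice that share a replicate number of the labels, which for BCAS mice differs from that of the count columns, are not stated to be a pair, and the deviations of such libraries from their group means correlated at 0.036, -0.314 and -0.158. With the replicate number as a block, the log2 fold changes were 0.92 for Stat2, 1.03 for Stat3, 1.76 for Stat5a, 0.73 for Stat5b and 1.67 for Stat6, and 1595 genes in all were DEGs. The block changed no call of these 5 genes. Depth limits the statements on Stat4, with 2 to 16 counts per library, and on the ligands with 3 counts or fewer. With 3 mice per group, the exact tests of ratios cannot pass a threshold of 0.05.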

Other observations

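Prlr, the prolactin receptor listed above STAT5, varied by mouse and not by group. It had 604, 1986 and 153 counts in sham mice 1 to 3 and 2791, 111 and 1631 counts in BCAS mice 1 to 3. Choroid plexus markers (Ttr, Kl, Folr1, Kcnj13 and Clic6) showed the same order of libraries in sum, at 985, 4075 and 69.8 CPM in sham mice and 5913, 40.3 and 3205 CPM in BCAS mice. Over all 6 libraries no STAT gene had this order, and BCAS mouse 3 was the highest library of each. Within sham mice Stat3 and Stat6 did have it, and BCAS mouse 2 was the lowest BCAS library in CPM for each STAT gene. The part of choroid plexus tissue in the levels of the STAT genes was not tested.

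The pituitary hormone genes Gh and Prl, ligands listed above STAT5, were highest in sham mouse 1, with 349 and 71 counts. In the other 5 libraries Gh had 0 to 29 counts and Prl had 0 to 4. Among targets of STAT6 that are known from IL-4 treated macrophages, Retnla had 0 counts in each sham mouse and 2, 3 and 1 in BCAS mice, and Alox15 had 0 counts in sham mice and 0, 7 and 15 in BCAS mice 1 to 3.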
